A study of Mus musculus with 4 samples.

Results

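Toll-like receptors and their co-receptor CD14 were examined by RNA-seq of lumbar spinal cord in 2 genotypes, wild type (WT) and G93A, with and without spermidine (SD), a natural polyamine. G93A animals express a mutant form of human SOD1 and serve as a model of amyotrophic lateral sclerosis (ALS). The members were chosen by name and comprise Tlr1, Tlr2, Tlr3, Tlr4, Tlr6, Tlr7, Tlr8, Tlr9, Tlr13 and Cd14, which are 10 of the 18674 gene names in the deposited table. Each of them has 1 row there. Data were deposited for 4 libraries, 1 each for WT vehicle, G93A vehicle, WT + SD and G93A + SD. According to the methods and labels, SD or PBS was given 4 times per week for 30 days, the SD dose being 5 mg/kg by intraperitoneal injection, and tissue was taken at an age of 100 days. For the vehicle libraries the treatment label reads none, and the methods name PBS and, elsewhere, saline as the vehicle. The G93A mice were of the H1 high-expresser strain, bred with B6/SJLF1 females, and male mice were used in treatment studies. The number of animals behind a library and the promoter of the transgene are not given in the sources used here. With 1 library per group no difference has a replicate check, and no p-value or standard deviation can be given.

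The unit was inferred to be RPKM (reads per kilobase and per library size), so that levels of different genes are given per length. A gene is called higher or lower where its RPKM differed at least 1.5-fold. Log2 fold changes were computed with a pseudocount of 0.1 RPKM, which understates the change of low genes. Depth was estimated from the smallest common step in the values at between 36800000 and 38600000 read pairs per library. The methods name paired-end adaptors but do not state whether reads were counted singly or in pairs. Read pair therefore stands here for a counted unit, and the read pair numbers of single genes are approximate. Where a pair of values is given for a genotype, the vehicle library comes before the SD library. The tissue labels were set beside marker genes, without another tissue for comparison. These markers cannot tell lumbar cord from other levels. The oligodendrocyte genes summed to between 6428 and 8852 RPKM, the neuronal genes to between 903 and 1623 RPKM and the cholinergic motor neuron genes to between 29.3 and 55.4 RPKM. The mouse Sod1 row does not measure the human transgene, so that the genotype labels have no direct check.

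Toll-like receptors recognise molecules of microbes and of damaged cells. Tlr1, Tlr2, Tlr4 and Tlr6 act at the cell surface, where CD14 hands ligands to Tlr4 and Tlr2, whereas Tlr3, Tlr7, Tlr8, Tlr9 and Tlr13 detect nucleic acids in endosomes. Signals pass through the adaptors MyD88 or TRIF to NF-kB and interferon regulatory factors. In the central nervous system most of these receptors are known from microglia, the resident macrophages, while Tlr3 is also known from astrocytes and neurons.

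All 10 genes had higher levels in both G93A libraries than in both WT libraries. The share of all gene names with this pattern was not computed. By any amount, 55.1% of all names were higher in G93A with vehicle and 55.0% with SD. With vehicle, 9 of the 10 genes were at least 1.5-fold higher in G93A than in WT, against 20.3% of all gene names, and 0 were lower, against 10.3% of all names. Among the 12987 names with a mean of at least 1 RPKM, to which 8 of the 10 genes belong, 13.5% were higher and 4.68% lower. This mean is taken over all libraries. Tlr1, Tlr4, Tlr7, Tlr9 and Tlr13 lie below 1 RPKM in both WT libraries and reach it only through the G93A libraries. The gene of the 10 that did not pass 1.5-fold was Tlr3, which was 1.32-fold higher. The median log2 fold change of the 10 genes was 2.30, and 2.24 without Tlr8, which is listed at 0 in WT, against 0.046 over all gene names. With SD, all 10 genes passed 1.5-fold upwards in G93A + SD relative to WT + SD, against 23.2% of all names (16.3% of the names with a mean of 1 RPKM or more, and 8.12% of these lower), with a median log2 fold change of 2.66 (2.64 without Tlr8) against 0.050 over all names. The summed level of the 10 genes was 15.6 and 14.9 RPKM in the WT libraries and 54.6 and 69.6 RPKM in the G93A libraries.

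**Figure D1:**
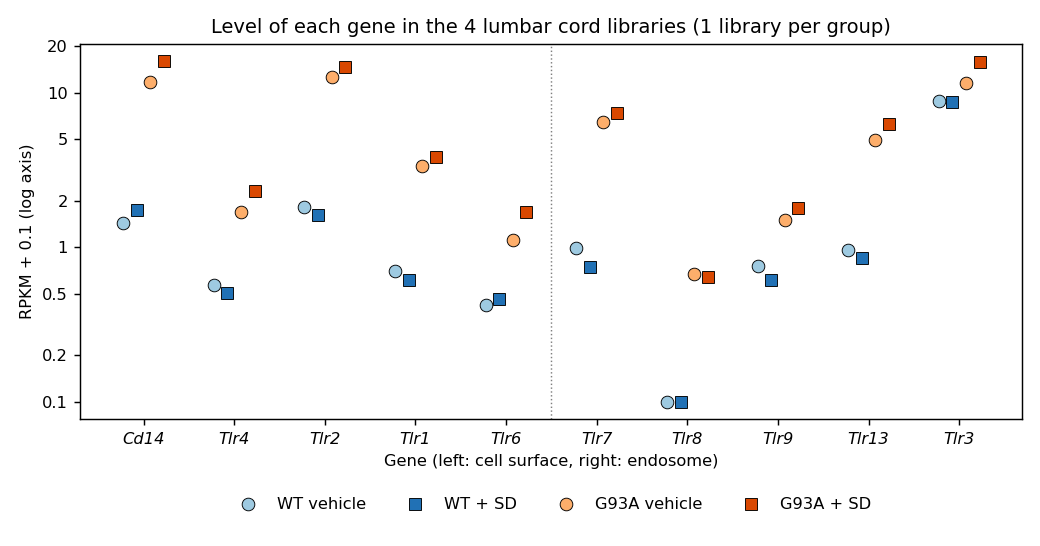
RPKM + 0.1 on a log axis of each of the 10 genes (cell surface on the left, endosome on the right of the dotted line) in each of the 4 libraries, with 1 point per library. Both G93A points lie above both WT points for all 10 genes, with the smallest ratio for Tlr3 (8.74 and 8.56 RPKM in the WT libraries against 11.5 and 15.8 RPKM in the G93A libraries), and Tlr8 is listed at 0 in both WT libraries. The share of all gene names with this pattern was not computed.

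Among the surface members, Cd14, the lipopolysaccharide co-receptor, had 1.33 and 1.64 RPKM in the WT libraries and 11.7 and 15.9 RPKM in the G93A libraries. It showed the largest fold of the members with a value above 0 in WT vehicle, 8.79-fold in G93A vehicle against WT vehicle, and its log2 fold change of 3.04 ranked 112 among the 18674 gene names. With SD the ratio between genotypes was 9.75-fold. Tlr2, which forms dimers with Tlr1 and Tlr6 and recognises lipoproteins, had 1.72 and 1.51 RPKM in the WT libraries and 12.5 and 14.6 RPKM in the G93A libraries. It was 7.26-fold higher in G93A with vehicle and 9.70-fold higher with SD. In the GENCODE annotation of GRCm38, Tlr2 lies on chromosome 3 from 83836272 to 83841767 on the minus strand. The estimate for Tlr2 was 190 read pairs in WT vehicle and 1429 read pairs in G93A vehicle.

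Tlr4, the receptor for lipopolysaccharide (chromosome 4, 66827584 to 66930284, plus strand), was low in every library, with 0.475 and 0.403 RPKM in the WT libraries and 1.58 and 2.21 RPKM in the G93A libraries. The ratio between genotypes was 3.33-fold with vehicle and 5.49-fold with SD. Cd14 was present at 2.81 times the level of Tlr4 in WT vehicle and 7.41 times in G93A vehicle, with 4.06 and 7.21 times in WT + SD and G93A + SD.

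Tlr1, the partner of Tlr2 for triacylated lipopeptides, had 0.607 and 0.514 RPKM in the WT libraries and 3.24 and 3.72 RPKM in the G93A libraries. Tlr6, the partner for diacylated lipopeptides, had 0.324 and 0.362 RPKM in WT and 1.02 and 1.59 RPKM in G93A. In both WT libraries and both G93A libraries Tlr1 was above Tlr6, by 1.87-fold in WT vehicle, 1.42-fold in WT + SD, 3.19-fold in G93A vehicle and 2.34-fold in G93A + SD. The ratio between genotypes was 5.34-fold for Tlr1 and 3.14-fold for Tlr6 with vehicle, and 7.23-fold and 4.39-fold with SD.

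The values of Tlr1 and Tlr6 are not fully separate measurements. In the annotation they lie in the same orientation on chromosome 5, Tlr1 from 64924679 to 64933563 and Tlr6 from 64952031 to 64960097 on the minus strand. Of the 2731 windows of 53 bases (the read length) in the listed Tlr1 transcript, 436 (16.0%) also occur among the 3625 windows of Tlr6. How reads in these stretches were assigned is not stated. The longest identical run spans 229 bases of coding exon, at chr5:64925537-64925765 in Tlr1 and chr5:64953828-64954056 in Tlr6, coding bases 1468 to 1696 and 1507 to 1735 of the respective gene. It is shown because a read from anywhere inside it could belong to either gene.

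Tlr1 and Tlr6: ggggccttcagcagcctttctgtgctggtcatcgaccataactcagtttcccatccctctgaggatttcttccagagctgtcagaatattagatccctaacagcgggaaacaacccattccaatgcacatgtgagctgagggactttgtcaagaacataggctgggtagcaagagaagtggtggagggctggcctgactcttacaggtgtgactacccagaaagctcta

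Summed over both genes, the level was 0.931 and 0.876 RPKM in the WT libraries and 4.26 and 5.31 RPKM in the G93A libraries. The sum was 4.57-fold higher in G93A with vehicle and 6.06-fold higher with SD. None of the windows of Tlr2, Tlr4, Tlr7, Tlr8, Tlr9, Tlr13 or Cd14 occurs in another gene, and 65 of the 4355 windows of Tlr3 occur in the antisense gene Gm45542, which overlaps 117 bases of its exons.

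Among the endosomal members, Tlr7, a receptor for single-stranded RNA, had 0.894 and 0.642 RPKM in the WT libraries and 6.34 and 7.29 RPKM in the G93A libraries. It was 7.09-fold higher in G93A with vehicle, and with SD the 11.4-fold ratio was the largest of the 9 members that are above 0 in WT + SD. Tlr8, its neighbour on the X chromosome (167242696 to 167264329 on the minus strand, against 167304929 to 167330558 for Tlr7), is listed at 0 in WT vehicle and in WT + SD. It had 0.568 RPKM in G93A vehicle and 0.540 RPKM in G93A + SD, for which about 74.1 and 71.6 read pairs were estimated. No fold is given for Tlr8 against WT. Tlr13, which recognises bacterial ribosomal RNA and is also X-linked (106143204 to 106160493 on the plus strand), had 0.865 and 0.756 RPKM in the WT libraries and 4.82 and 6.15 RPKM in the G93A libraries. The ratio between genotypes of Tlr13 was 5.57-fold with vehicle and 8.14-fold with SD.

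Tlr9, the receptor for unmethylated CpG DNA (chromosome 9, 106222598 to 106226883, plus strand), had 0.655 and 0.513 RPKM in the WT libraries and 1.39 and 1.70 RPKM in the G93A libraries. Its ratio of 2.13-fold with vehicle was the smallest after that of Tlr3, and it was 3.32-fold with SD. Tlr7 was 1.36 times the level of Tlr9 in WT vehicle and 4.55 times in G93A vehicle. Tlr3, the receptor for double-stranded RNA (chromosome 8, 45395665 to 45411080, minus strand), was the highest member in both WT libraries. It had 8.74 and 8.56 RPKM in the WT libraries and 11.5 and 15.8 RPKM in the G93A libraries. The ratio between genotypes of Tlr3 was 1.32-fold with vehicle and 1.85-fold with SD, and 78.7% of all gene names had a smaller log2 fold change than Tlr3 with vehicle.

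The order of the levels differed between the WT and G93A libraries. In WT vehicle, Tlr3 made up 56.0% of the summed RPKM of the 10 genes, followed by Tlr2 with 11.0% and Cd14 with 8.54%. In WT + SD, Tlr3 made up 57.5%. In G93A vehicle, Tlr2 (22.8%), Cd14 (21.4%) and Tlr3 (21.0%) were close together, and Tlr7 followed with 11.6%. In G93A + SD, Cd14 (22.9%), Tlr3 (22.7%) and Tlr2 (21.0%) were again close together. The spread within a group is unknown, so these neighbours cannot be ordered. Without Tlr3, the sum of the other members was 6.87 and 6.33 RPKM in the WT libraries and 43.1 and 53.8 RPKM in the G93A libraries. The sum of the 5 surface members was 6.74-fold higher in G93A with vehicle, and that of the 5 endosomal members, Tlr3 included, was 2.21-fold higher. Tlr3 carries most of the endosomal sum in WT, and by gene the median log2 fold change was 2.24 for the surface and 2.35 for the endosomal members.

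**Figure D2:**
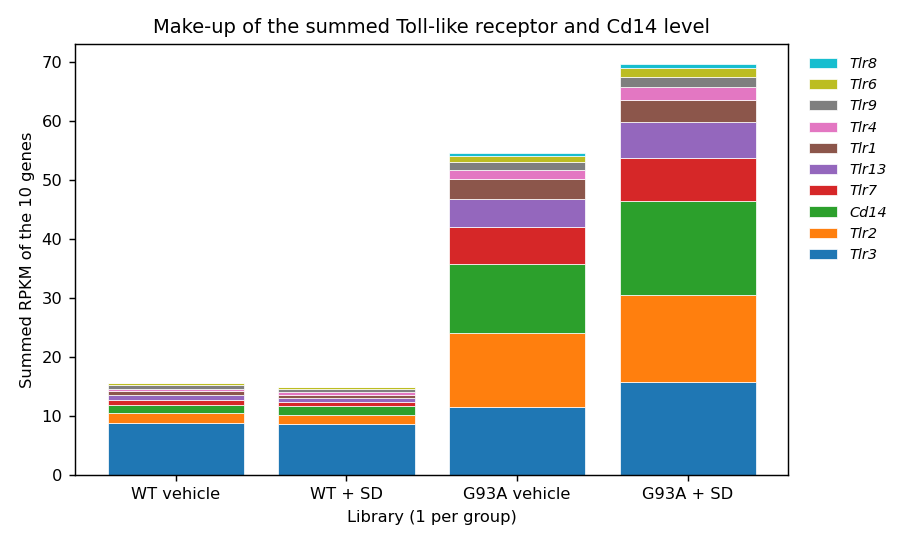
Summed RPKM of the 10 genes (vertical axis, from 0) in each of the 4 libraries, with the part of each gene stacked. The sum is 15.6 RPKM in WT and 54.6 RPKM in G93A with vehicle, and the part of Tlr3 is 56.0% in the former and 21.0% in the latter.

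Promoter sequences, credited to RefSeq on GRCm38.p6, were found for 7 of the 10 genes in 9 windows reaching from 250 bases before to 50 bases after a start site. Entries for Tlr4, Tlr7 and Cd14 were not used here. Because most members were higher together in G93A, the windows were searched on both strands for 4 short motifs. GAGGAA, a site of the type bound by PU.1, which is an ETS factor, occurred in 4 of the 9 windows and in 28.3% of 32851 promoter windows. The NF-kB type site (GGGA and TTCC with 2 free bases between them) occurred in 1 of the 9 and in 1.47% of all. The interferon response type site (GAAA and GAAA with 2 free bases between) occurred in 1 of the 9 (a window of Tlr6, with overlapping matches on the same strand) and in 3.44% of all. TGANTCA, an AP-1 type site, occurred in 1 of the 9 and in 7.81% of all. A match is a run of letters and not a binding site, and other spellings of these sites were not searched for. Shown here are the 4 windows with GAGGAA and the Tlr3 window, whose gene differed least between genotypes, with all matches to the 4 motifs in capitals.

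Tlr1, chr5:64933509-64933808, minus strand: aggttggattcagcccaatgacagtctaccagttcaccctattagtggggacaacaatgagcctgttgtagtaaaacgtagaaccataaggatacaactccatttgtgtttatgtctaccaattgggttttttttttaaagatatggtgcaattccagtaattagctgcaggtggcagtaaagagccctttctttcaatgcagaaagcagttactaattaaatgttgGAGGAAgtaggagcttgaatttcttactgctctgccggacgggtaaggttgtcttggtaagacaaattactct
Tlr8, chrX:167264280-167264579, minus strand: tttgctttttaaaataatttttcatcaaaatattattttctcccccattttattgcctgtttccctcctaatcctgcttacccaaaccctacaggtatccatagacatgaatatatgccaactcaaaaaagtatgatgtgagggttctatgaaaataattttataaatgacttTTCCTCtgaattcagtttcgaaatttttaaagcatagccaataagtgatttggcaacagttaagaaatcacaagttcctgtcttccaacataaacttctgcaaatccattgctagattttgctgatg
Tlr9, chr9:106222348-106222647, plus strand: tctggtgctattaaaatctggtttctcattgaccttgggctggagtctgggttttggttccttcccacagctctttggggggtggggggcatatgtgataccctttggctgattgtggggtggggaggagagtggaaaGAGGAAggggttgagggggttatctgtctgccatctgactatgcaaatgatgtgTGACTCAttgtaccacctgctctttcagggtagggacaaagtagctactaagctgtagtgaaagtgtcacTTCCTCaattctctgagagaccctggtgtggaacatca
Tlr13, chrX:106143025-106143324, plus strand: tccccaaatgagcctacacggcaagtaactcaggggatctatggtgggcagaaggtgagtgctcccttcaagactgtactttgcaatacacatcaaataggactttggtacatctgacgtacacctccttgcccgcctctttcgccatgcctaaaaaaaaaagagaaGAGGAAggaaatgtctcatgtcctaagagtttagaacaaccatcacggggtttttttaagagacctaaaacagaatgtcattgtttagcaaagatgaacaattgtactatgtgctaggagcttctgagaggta
Tlr3, chr8:45410331-45410630, minus strand: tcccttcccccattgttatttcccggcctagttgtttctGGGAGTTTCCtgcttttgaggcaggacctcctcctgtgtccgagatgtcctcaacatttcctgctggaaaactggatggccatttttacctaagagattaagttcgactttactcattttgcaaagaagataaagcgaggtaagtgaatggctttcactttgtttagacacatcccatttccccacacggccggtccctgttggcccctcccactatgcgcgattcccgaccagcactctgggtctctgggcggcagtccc

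Relative to the start site, the GAGGAA match begins at -23 in Tlr1, at -77 in Tlr8 (on the opposite strand, as TTCCTC) and at -83 in Tlr13. Tlr9 has 2 matches, before and after the start, and its AP-1 type match at -58. The Tlr3 window holds the NF-kB type match at -211 and no GAGGAA. The same core was also absent from the Tlr2 window, from both Tlr6 windows and from the other Tlr1 window, so its absence was not particular to Tlr3. The Tlr2 window holds no match to any of the 4 motifs as spelled here. It does hold GGGAATTCCC, which is close to the NF-kB type spelling but falls outside the search. The lack of a match therefore does not mean that the Tlr2 window lacks such a site. With vehicle, Tlr2 was 7.26-fold and Tlr6 3.14-fold higher in G93A, whereas Tlr9, with 2 matches to GAGGAA, was 2.13-fold higher. The Tlr8 window has a GC content of 32.3%, against a median of 52.7% over all promoter windows.

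SD was compared with vehicle within each genotype. In G93A, 9 of the 10 genes had a higher value with SD than with vehicle, and Tlr8 had a lower one. The value was higher with SD for 51.3% of all gene names, and for 79.0% of the 1751 names with a mean of 1 RPKM or more that were 1.5-fold higher in G93A with vehicle, whose median log2 fold change was 0.15. Selection by a high value in G93A vehicle tends to lower the ratio of SD to vehicle of these 1751 names. They are not a matched reference for the members. Only Tlr6 passed 1.5-fold, with 1.56-fold, against 8.71% of all gene names in that direction and 7.31% in the other (1.34% and 1.04% of the names with a mean of 1 RPKM or more, to which Tlr6 does not belong). About 142 read pairs were estimated for Tlr6 in G93A vehicle and 226 in G93A + SD, and the sum of Tlr1 and Tlr6 was 1.25-fold higher. The other ratios were 1.40-fold for Tlr4, 1.37-fold for Tlr3, 1.36-fold for Cd14, 1.28-fold for Tlr13, 1.22-fold for Tlr9, 1.17-fold for Tlr2, 1.15-fold for Tlr7 and for Tlr1, and 0.952-fold for Tlr8. The median log2 fold change of the 10 genes was 0.31, against 0.0068 over all names.

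In WT, 0 of the 10 genes passed 1.5-fold in either direction between WT + SD and WT vehicle, against 7.18% of all names that were higher and 8.55% that were lower (0.909% and 1.36% of the names with a mean of 1 RPKM or more). Tlr1, Tlr2, Tlr3, Tlr4, Tlr7, Tlr9 and Tlr13 had lower values in WT + SD by less than that, Tlr6 and Cd14 had higher ones, and Tlr8 is listed at 0 in both. By any amount, 51.1% of all names were higher in WT + SD. The ratios of the members lay between 0.718-fold for Tlr7 and 1.23-fold for Cd14, and their median log2 fold change was -0.17. The log2 ratio between genotypes was larger with SD than with vehicle for 9 of the 10 genes, Tlr8 being the exception, and the median of the difference was 0.48. The same difference was above 0 for 50.3% of all gene names. Among the 1751 names with a mean of 1 RPKM or more that passed 1.5-fold upwards in G93A with vehicle, it was above 0 for 70.5%, with a median of 0.15. These names were selected on the vehicle libraries that enter the difference, which tends to lower it. They are not a matched reference for the members. These comparisons share libraries and are not independent of each other.

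**Figure D3:**
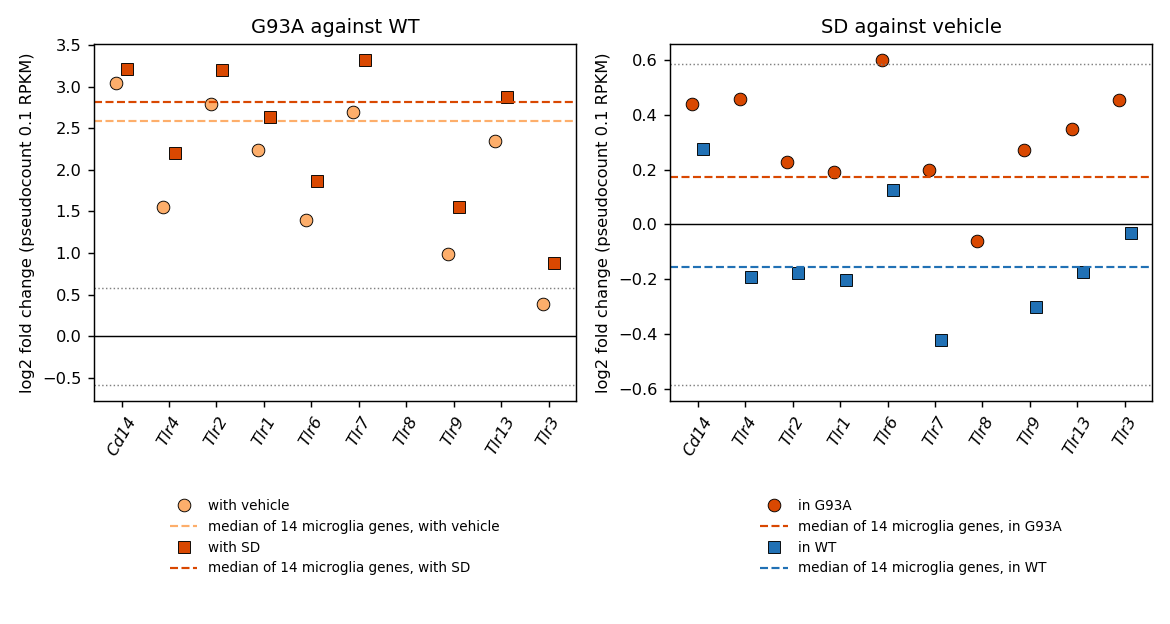
Log2 fold change (pseudocount 0.1 RPKM) of each gene in G93A against WT (left; circles with vehicle, squares with SD) and in SD against vehicle (right; circles in G93A, squares in WT), with 1.5-fold as dotted lines and the median of 14 microglia genes as dashed lines. Tlr8 is drawn only for SD in G93A because it is listed at 0 in WT. With vehicle the members run from 0.39 (Tlr3) to 3.04 (Cd14) around a microglia median of 2.59, and on the right only Tlr6 in G93A passes a dotted line.

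Genes of microglia were higher in the same libraries. Of 14 microglia marker genes, 13 were at least 1.5-fold higher in G93A with vehicle and 13 with SD, P2ry12 being the exception in both, and their summed level was 213 and 191 RPKM in the WT libraries and 1292 and 1403 RPKM in the G93A libraries. Their median log2 fold change was 2.59 with vehicle and 2.82 with SD. In bulk RNA, a change in the number of cells of a type and a change in the RNA per cell cannot be told apart. Set against the microglia median with vehicle, Cd14 was above it by 0.46 on the log2 scale, Tlr2 by 0.20 and Tlr7 by 0.11. Tlr13 was below it by a log2 difference of -0.24, Tlr1 by -0.35, Tlr4 by -1.04, Tlr6 by -1.19, Tlr9 by -1.60 and Tlr3 by -2.20. Per 100 RPKM of summed microglia markers, Cd14 had 0.626 RPKM in WT and 0.907 RPKM in G93A with vehicle, and Tlr2 had 0.805 and 0.965 RPKM. On the same scale Tlr4 had 0.223 and 0.122 RPKM, Tlr9 had 0.307 and 0.108 RPKM, and Tlr3 had 4.10 and 0.890 RPKM. The position against microglia depends on the markers chosen. Against 6 of them alone (Aif1, Itgam, Csf1r, Cx3cr1, P2ry12 and Tmem119), a choice made after the values were seen, the median of the 10 members lay above the markers by 0.65 on the log2 scale, whereas against all 14 it lay below them by a log2 difference of -0.29.

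Other cells that carry these receptors were also looked at. The 6 astrocyte genes summed to 990.4 and 929 RPKM in the WT libraries and 3066 and 3639 RPKM in the G93A libraries, and 4 of the 6 were at least 1.5-fold higher in G93A with vehicle. Gfap, the astrocyte intermediate filament, had 441 and 386 RPKM in the WT libraries and 2269 and 2707 RPKM in the G93A libraries. The 4 endothelial genes summed to between 21.0 and 29.4 RPKM and the 2 measured red cell genes to between 20.4 and 41.5 RPKM. The 5 neuronal genes summed to 1622 RPKM in WT and 1045 RPKM in G93A with vehicle. Markers of neutrophils and of B and T cells were near 0. The 5 measured neutrophil genes summed to between 0.0465 and 0.301 RPKM, with Mpo, Elane and Camp each listed at 0 in at least 1 library, and the 6 genes of B and T cells to between 0.0419 and 0.305 RPKM. The 7 genes of monocytes and border macrophages summed to 1.22 and 1.08 RPKM in the WT libraries and 1.76 and 2.58 RPKM in the G93A libraries. The part of astrocytes and border macrophages in the values of the receptors was not tested.

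Tlr5, Tlr11 and Tlr12 were measured below 1 RPKM in every library. Tlr5, the flagellin receptor, had 0.425 and 0.503 RPKM in the WT libraries and 0.532 and 0.419 RPKM in the G93A libraries, without a 1.5-fold difference between genotypes. Tlr12 had 0.238 and 0.279 RPKM in WT and 0.452 and 0.365 RPKM in G93A and was 1.90-fold higher in G93A with vehicle and 1.31-fold with SD. Tlr11 was at or below 0.0333 RPKM in every library.

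Across the rest of the pathway, 74 genes outside the members were measured, of which 44 were at least 1.5-fold higher in G93A with vehicle and 0 lower (20.3% and 10.3% of all names). With SD, 40 were higher and 3 (Tab3, Sigirr and Il12b) lower (23.2% and 12.5% of all names). Among accessory proteins and ligand carriers, all 6 measured genes were higher with vehicle. Ly86, the partner of Cd180, had 6.41 and 5.01 RPKM in the WT libraries and 78.0 and 63.8 RPKM in the G93A libraries. Cd180 itself, a relative of Tlr4 without a signalling domain, was 7.31-fold higher with vehicle and 10.4-fold with SD. Ly96, which encodes MD-2, the lipopolysaccharide-binding partner of Tlr4, had 0.673 and 0.975 RPKM in the WT libraries and 1.59 and 2.81 RPKM in the G93A libraries, and its ratio of SD to vehicle in G93A was 1.76-fold.

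Of the 7 genes for chaperones and proteases that traffic or cleave endosomal receptors, 4 were higher with vehicle. Unc93b1, which escorts nucleic acid-sensing receptors to endosomes, had 4.25 and 3.23 RPKM in the WT libraries and 14.7 and 16.4 RPKM in the G93A libraries. The proteases Ctss, Ctsb and Lgmn were 6.35-fold, 3.28-fold and 1.65-fold higher with vehicle. Hsp90b1, the folding chaperone of most Toll-like receptors, had 174 RPKM in WT and 183 RPKM in G93A with vehicle and did not pass 1.5-fold. Among the 6 adaptors, 4 were higher with vehicle. Myd88 was 2.18-fold higher, Ticam1, which encodes TRIF, 2.78-fold, and Pik3ap1 3.44-fold, while Sarm1, a largely neuronal member of the adaptor family, was 0.846-fold.

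Of the 16 kinases and ubiquitin ligases, 3 (Irak4, Ikbke and Map3k8) were higher with vehicle and 0 lower, a share near the 20.3% of all names that were higher, and the median log2 fold change was 0.26. Irak4, the first kinase of the MyD88 complex, had 1.08 and 1.09 RPKM in the WT libraries and 2.32 and 2.73 RPKM in the G93A libraries. Of 9 measured transcription factors, 6 were higher with vehicle. Irf8, a myeloid factor, was 6.60-fold higher, Irf5 4.01-fold, Nfkb2 3.27-fold, Relb 1.98-fold, Irf7 1.72-fold and Rela 1.65-fold. Of 10 inhibitors of the pathway, 4 were higher with vehicle. Tnfaip3, a ubiquitin-editing brake on NF-kB, was 2.37-fold higher, Nfkbia, the NF-kB inhibitor, 1.93-fold and Dusp1 1.64-fold, whereas Tollip was 0.979-fold.

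Of the 12 target cytokines and chemokines, 11 were higher with vehicle, most of them from values below 0.5 RPKM in WT vehicle. Only 5 of the 12 have a mean of at least 1 RPKM. Il6, Il12b and Ifnb1 were near 0 in G93A vehicle as well, at 0.145, 0.0673 and 0.0342 RPKM. Ccl3 had 0.253 and 0.237 RPKM in the WT libraries and 11.8 and 10.5 RPKM in the G93A libraries. Ccl4 had 0.186 and 0.197 RPKM in WT and 8.11 and 7.56 RPKM in G93A. Ccl2 was 10.1-fold, Ccl5 5.03-fold and Cxcl10 4.74-fold higher with vehicle, and the ratio of SD to vehicle in G93A was 1.72-fold for Cxcl10. Of 6 genes for endogenous ligands, 5 were higher with vehicle, among them Tnc, which encodes a matrix ligand of Tlr4, by 5.45-fold, Bgn by 1.73-fold and Vcan by 1.51-fold. Over the 74 pathway genes, SD in G93A went with at least 1.5-fold higher values for 3 (Ly96, Lbp and Cxcl10) and lower values for 8 (Tlr11, Sigirr, Socs1, Il12b, Ptgs2, Ifnb1, S100a8 and S100a9, all at or below 1.27 RPKM in G93A vehicle), against 8.71% and 7.31% of all names, with a median log2 fold change of 0.056.

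**Figure D4:**
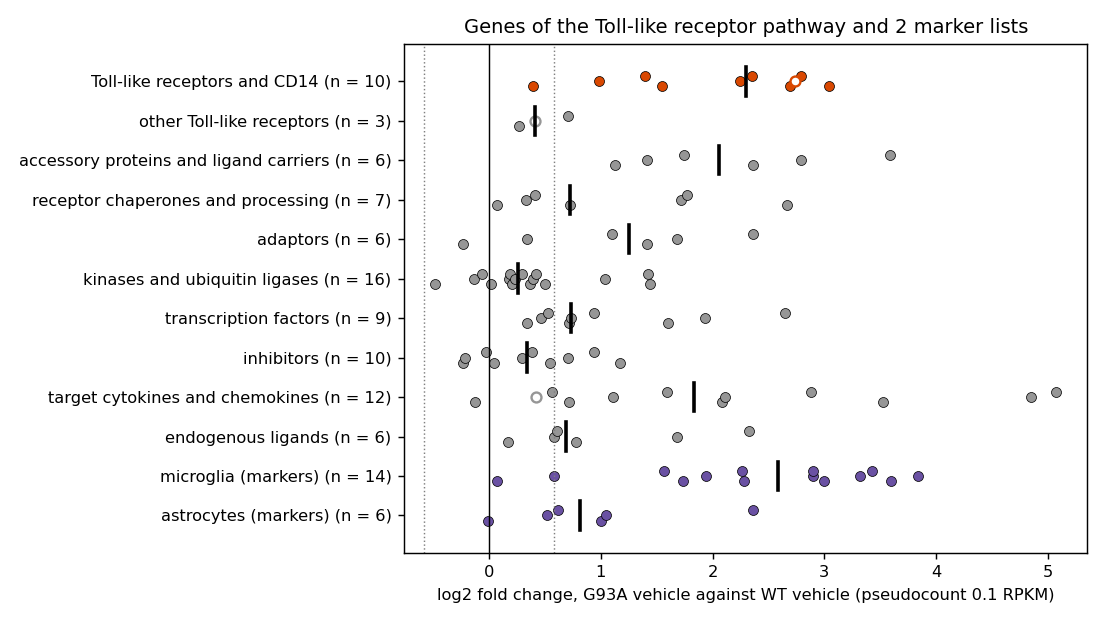
Log2 fold change in G93A vehicle against WT vehicle (horizontal axis, pseudocount 0.1 RPKM) of the 10 members (orange), of the genes in 9 lists of the pathway (grey) and of the microglia and astrocyte markers (purple), with 1 point per gene, open points for genes listed at 0 in WT vehicle, black bars for medians and dotted lines at 1.5-fold. The median is 2.30 for the members, 2.06 for accessory proteins and ligand carriers, 0.26 for kinases and ubiquitin ligases and 2.59 for the microglia markers.

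The genes whose pattern over the 4 libraries was closest to the median profile of the members were sought among 12979 other names with a mean of at least 1 RPKM. By root mean square distance of centred log2 values the nearest were 1810011H11Rik (0.040), Fyb (0.045), Mt1 (0.052), Aif1 (0.053) and Dock2 (0.058). Fyb and Dock2 encode proteins of leukocyte signalling, and Aif1 encodes the microglial protein Iba1. Mt1 encodes a metallothionein and is not on the microglia list. It had 227 and 191 RPKM in the WT libraries and 1050 and 1155 RPKM in the G93A libraries. No cell type is given here for 1810011H11Rik, the nearest gene, so these names do not point to a single cell type. Fyb had 1.04 and 0.902 RPKM in the WT libraries and 5.77 and 6.68 RPKM in the G93A libraries. With 4 points per gene this likeness is a description of these libraries.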

How the data were processed

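RNA from the lumbar spinal cord was measured in 4 libraries, 1 per group, grouped by the sample titles. The authors deposited 1 table of 23750 rows of RefSeq transcripts with 18674 gene names, and its deposited values were treated as RPKM. This unit rests on the values themselves, since neither header nor methods state one. The methods name polyA selection, 53 bp reads, alignment with STAR to GRCm38 (mm10) and HTSeq counts on an Ensembl gene set, but no step that leads to this table. Ratio columns made by the authors were not used. RPKM were averaged over the rows of a name. Genes listed at 0 on a single side of a comparison alone were called as changed. RPKM times GENCODE transcript length, available for 97.0% of rows, showed a most common smallest step on transcripts longer than 500 bases, which was read as 1 read pair and gave the estimated depth. No interval was derived from it. No test was possible with 1 library per group.

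The members and gene lists were chosen with earlier results of these data known. The genes named outside the members are those past 1.5-fold with vehicle and a mean of at least 1 RPKM, at most the 4 largest and 2 smallest of each pathway list, the highest and lowest gene of each marker list where the text turns on one, and 5 genes of like pattern. Tlr5, Tlr11, Tlr12, Ikbke, Map3k8, Tab3, Il6, Il12b, Ptgs2, Ifnb1, P2ry12, Itgam, Csf1r, Cx3cr1, Tmem119, Mpo, Camp, Hsp90b1, Sarm1, Tollip, S100a8, S100a9, Lbp, Sigirr and Socs1 are named outside this rule, after their values were seen. Spi1, Ly6g, Rbfox3, Hbb-bs and Hbb-bt were on the lists and are not analysed here. Alternatives were median-ratio scaling, a pseudocount of 1 RPKM, a mean of at least 1 RPKM, a 2-fold threshold, the highest row of a name and the other control library. The software was pandas 2.3.3, numpy 2.4.6 and matplotlib 3.10.9 under Python 3.11.15. The calls were tested on simulated data only for well-measured genes with large changes. That check does not cover genes as low as most members in WT, folds near 1.5 or variation between animals.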

Additional observations from a re-analysis of the deposited data

Results flagged for a closer look

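For 7 genes the direction of SD against vehicle was opposite in the genotypes, with higher values after SD in G93A and lower values after SD in WT. The share of all gene names with this pattern was not computed. By any amount, 51.3% of all names were higher with SD in G93A and 51.1% in WT. The log2 fold change in G93A minus that in WT was 0.39 for Tlr1, 0.41 for Tlr2, 0.49 for Tlr3, 0.65 for Tlr4, 0.62 for Tlr7, 0.57 for Tlr9 and 0.52 for Tlr13. With 1 library per group the difference was not tested, and none of the 7 genes passed 1.5-fold within either genotype. The microglia markers moved in the same directions, with a median log2 fold change of 0.17 in G93A and -0.16 in WT. The same difference was above 0 for 13 of 14 microglia markers (median 0.32) and 6 of 6 astrocyte markers (median 0.29).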

How the results depend on the processing

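With no replicates or read counts, a median was taken as unmoved within 0.58 on the log2 scale (1.5-fold), and a count within 1.5 times. With a pseudocount of 1 RPKM the median log2 fold change of the members for genotype was 1.10 with vehicle and 1.42 with SD, since most members lie near or below 1 RPKM in WT, and the median relative to the microglia markers was -1.09. Relative to 6 microglia markers it was 0.65, a setting chosen after seeing the data. The number of members past 1.5-fold between G93A + SD and G93A vehicle was 0 with a pseudocount of 1 RPKM, 0 with a mean of at least 1 RPKM, which leaves out Tlr6, and 0 at 2-fold. Of the 54 pathway genes whose mean reaches 1 RPKM, 28 were higher with vehicle, against 13.5% of all names of that abundance, and of all 74 pathway genes 44 were. This mean includes the G93A libraries, and Ccl2, Ccl3, Ccl4 and Ccl5, for example, reach it only through them. The other settings kept the direction of these results. No paired analysis was possible because each group has 1 library and the labels give no replicate numbers. Depth limits Tlr8 and Tlr6 most.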

Other observations

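S100a8 and S100a9, which encode a calcium-binding complex that is a ligand of Tlr4 and is best known from neutrophils, had lower values in G93A + SD than with vehicle. S100a8 had 0.583 and 0.525 RPKM in the WT libraries and 0.938 and 0.364 RPKM in the G93A libraries. S100a9 had 0.328 and 0.262 RPKM in WT and 1.27 and 0.342 RPKM in G93A, which is 0.268-fold in G93A + SD against G93A vehicle. Both genes were named after their values were seen, and their levels are low in every library. Lbp, which encodes the carrier of lipopolysaccharide to CD14, was higher with SD in both genotypes, with 0.244 and 0.573 RPKM in the WT libraries and 1.05 and 1.63 RPKM in the G93A libraries. The inhibitors Sigirr and Socs1 were the genes of their list past 1.5-fold in G93A + SD against G93A vehicle, at 0.589-fold and 0.371-fold, from values below 1 RPKM.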
